A study of Mus musculus with 12 samples.

Results

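The genes described here are 10 receptors for extracellular nucleotides, lysophospholipids and oxysterols, followed through 12 mouse RNA-seq libraries of dendritic cells (DCs), which present antigen to T cells. They were taken by symbol from both count tables, 10 of the 32190 symbols in each. Gpr34 and P2ry10 encode receptors for lysophosphatidylserine, S1pr1 a receptor for sphingosine 1-phosphate and Gpr183 a receptor for oxysterols. P2ry6, P2ry12, P2ry13 and P2ry14 encode G protein-coupled nucleotide receptors of the P2Y family. P2rx4 and P2rx7 encode ATP-gated ion channels of the P2X family. Gpr34 was chosen by its measured decrease after LPS in WT cells, named before among the largest of all genes, so that difference, and each comparison that shares its WT libraries, stand below as descriptions with no test for this gene. Which values chose the other 9 genes is not recorded. The p-values of the other genes are per gene, adjusted over all genes tested, and are not evidence about the group of 10.

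Nucleotides leak or are released from stressed and dying cells and act at short range. ATP opens the P2X channels, ADP and UDP act on P2Y receptors, and ectoenzymes on the cell surface break the nucleotides down. In myeloid cells P2rx7 is known as the channel through which extracellular ATP triggers the NLRP3 inflammasome and the release of IL-1 beta. The lipid receptors are best known for steering cells: Gpr183 positions DCs and B cells along oxysterol gradients, and S1pr1 guides lymphocytes out of lymphoid tissue.

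The tumoral DCs were sorted from Zbtb46-Tdtomato mice, a reporter strain for the conventional DC factor Zbtb46, that carried MC38 colon carcinomas. They were taken at an early stage (day 7) or a late stage (day 14), with WT as the genotype label of both groups. Bone marrow-derived DCs (BMDCs), grown in culture from marrow of WT or Pde5 knockout mice and labelled with a time of 9 days, were left unstimulated or given 200 ng/ml LPS, a bacterial cell wall product that activates TLR4, for 12 h. Each of the 6 groups holds 2 libraries. Whether both libraries of a group stem from different animals or cultures is not labelled. The p-values therefore cover the spread between the sequenced libraries and nothing beyond it, and that spread may be technical.

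Library totals ran from 14153700 to 19293261 counts in the tumoral and from 16122941 to 19684338 in the BMDC table. Levels are given as CPM, counts per 1000000 counts of a library after TMM scaling of the library sizes, and all 10 receptor genes passed the filter on low counts in both tables. The targeted gene, Pde5a, did not separate the genotype labels. Its level was 2.56 ± 0.68 CPM (SD, n = 2) in unstimulated WT and 2.78 ± 0.33 in unstimulated knockout-labelled BMDCs, a log2 difference of 0.12 (edgeR adjusted p = 0.887). After LPS it was 2.15 ± 1.32 against 2.00 ± 0.98 CPM. Which part of the gene was deleted is not stated in the sources used here, so counts over the whole gene may not test the label, and the cells are called knockout-labelled throughout. All 8 conventional DC markers, Zbtb46 and Flt3 among them, were present in every group, with sums of 8387 to 18712 CPM per library. Cd74 and H2-Ab1 made up most of these sums. Zbtb46 was at 32.6 ± 18.3 and 26.3 ± 4.17 CPM (SD, n = 2) in early and late tumoral DCs. In unstimulated WT BMDCs it was at 119 ± 8.46 CPM. In bulk libraries fewer cells of a type and less RNA per cell cannot be told apart.

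The positions are those of GENCODE vM21 on GRCm38 (mm10). P2ry12 (3:59216272-59262871), P2ry13 (3:59207892-59210882) and P2ry14 (3:59113855-59153618) lie side by side on the minus strand of chromosome 3, with gaps of 5.4 and 54.3 kb. All 3 lie inside Med12l, a Mediator subunit gene on the opposite strand, which shares 9 exon bases with P2ry12 and 0 with the others. P2rx7 (5:122643911-122691432) and P2rx4 (5:122707544-122729738) are neighbours 16.1 kb apart on the plus strand of chromosome 5. P2rx7 shares 119 exon bases, 1.99% of its exon length, with the microRNA gene Mir8115. Gpr34 (X:13632089-13640858) lies inside Cask and Gpr183 (14:121952551-121965195) inside Ubac2, both on the opposite strand with 0 shared exon bases. P2ry10 (X:107088492-107104974, plus strand), P2ry6 (7:100937630-100974649, minus strand) and S1pr1 (3:115710433-115715072, minus strand) overlap no other gene of the count tables. The strand setting of the counting is not given in the sources used here, so reads from a gene and its antisense partner may have been mixed.

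RefSeq promoter windows on GRCm38.p6, running from 250 bases before to 50 bases after a transcription start, matched 7 of the 10 genes and gave 12 windows; Gpr34, P2ry6 and S1pr1 had no entry. The windows printed are those of the genes with an entry that passed the test for LPS in WT cells, namely P2ry10 and P2rx4, which rose, and P2ry12, which fell. Capitals mark motif matches.
P2ry10, first window (chrX:107088242-107088541, plus strand): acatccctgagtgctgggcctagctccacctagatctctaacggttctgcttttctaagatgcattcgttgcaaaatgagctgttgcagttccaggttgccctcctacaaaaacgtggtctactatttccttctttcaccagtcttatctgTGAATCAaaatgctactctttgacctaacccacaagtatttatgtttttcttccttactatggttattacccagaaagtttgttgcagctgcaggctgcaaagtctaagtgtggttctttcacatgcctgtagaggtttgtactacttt
P2ry10, second window (chrX:107089083-107089382, plus strand): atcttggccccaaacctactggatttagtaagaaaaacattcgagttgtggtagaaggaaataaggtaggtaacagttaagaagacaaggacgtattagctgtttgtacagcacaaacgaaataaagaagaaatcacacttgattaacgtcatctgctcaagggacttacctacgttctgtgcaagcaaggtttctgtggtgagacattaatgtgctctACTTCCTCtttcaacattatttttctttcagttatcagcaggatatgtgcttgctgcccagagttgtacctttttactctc
P2rx4 (chr5:122707294-122707593, plus strand): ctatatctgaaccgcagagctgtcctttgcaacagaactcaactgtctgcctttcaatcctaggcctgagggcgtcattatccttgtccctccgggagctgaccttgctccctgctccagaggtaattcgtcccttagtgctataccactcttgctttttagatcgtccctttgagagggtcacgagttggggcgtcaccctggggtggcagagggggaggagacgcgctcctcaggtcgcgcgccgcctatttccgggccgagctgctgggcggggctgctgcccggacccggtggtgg
P2ry12 (chr3:59262936-59263235, minus strand): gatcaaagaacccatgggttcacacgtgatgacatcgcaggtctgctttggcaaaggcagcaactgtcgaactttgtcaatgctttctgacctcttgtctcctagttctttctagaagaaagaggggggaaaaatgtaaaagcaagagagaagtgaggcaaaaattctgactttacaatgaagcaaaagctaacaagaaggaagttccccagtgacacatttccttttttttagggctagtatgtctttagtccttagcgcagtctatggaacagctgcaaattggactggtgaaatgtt
Both strands were searched for the interferon-stimulated response element (GAAA, any 2 bases, GAAA), the PU.1 core GAGGAAGT and the NF-kB consensus. For AP-1 the loose pattern TGANTCA was used, in which N is any base. The first P2ry10 window matches the AP-1 pattern with the letters TGAATCA at position -99 from the start. The second holds ACTTCCTC, the PU.1 core read on the other strand, at position -31. The P2rx4 and P2ry12 windows hold none of the 4 motifs. Over the 12 windows the AP-1 pattern was found in 4 and the PU.1 core in 2, against 7.808% and 3.202% of 32851 promoters. The AP-1 matches lay in windows of P2ry14, P2rx7 and P2ry10, with A, C or G as the middle base. Windows of 1 gene were counted apart. The interferon element and the NF-kB consensus were found in 0 of the 12 windows and in 3.443% and 4.505% of all promoters. The matches describe letters only, no 2 of them overlap, and a window without a match says nothing about the factor.

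LPS in WT BMDCs was the comparison with the most calls. S1pr1, P2ry10 and P2rx4 rose and P2ry12 fell, and Gpr34, the gene named beforehand, was lower. With edgeR's quasi-likelihood test and an adjusted p under 0.05, 3 of the other 9 genes were called higher and 1 lower. The background was high: 37.6% of the 13072 genes tested were called, 20% higher and 17.6% lower. The median log2 fold change of the 9 was -0.14 against -0.02 for all genes, and their median absolute change 0.70 against 0.41. For 8 of the 9, all but P2rx7, the CPM values of both groups did not overlap, as for 71% of all genes tested.

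In knockout-labelled BMDCs 0 of the 10 genes passed for LPS, and 0% of all genes did. The CPM values of 5 of the 10 did not overlap, as for 55.8% of all genes. At an unadjusted p under 0.05 edgeR gave 4 of the 10 (Gpr34, P2ry6, P2ry10 and S1pr1) and 2800 of all genes. DESeq2 called 3 of the 10 after adjustment (Gpr34, P2ry6 and P2ry10), against 6.07% of all genes. With limma-voom 0 of the 10 and 0% of all genes were called. In unstimulated cells, knockout-labelled against WT, 1 of the 9 genes other than Gpr34 was called, S1pr1, which was higher, against 18% of all genes called, 12% higher and 5.98% lower. Here 4 of the 9 did not overlap, against 64% of all genes. After LPS, 0 of the 9 and 0% of all genes were called between the labels. In edgeR 1 of the 9 (Gpr183) and 1330 of all genes had an unadjusted p under 0.05. DESeq2 and limma-voom called 0 of the 9, against 1.15% and 0% of all genes. The labels did not overlap after LPS for 5 of the 9 and 45.9% of all genes. The interaction of label and LPS called 1 of the 9, S1pr1 with a negative term, against 4.48% of all genes, 0.566% higher and 3.91% lower. These comparisons share libraries: LPS in WT and the label without stimulation both rest on the same 2 unstimulated WT libraries, so their values are set side by side and not compared with each other.

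**Figure D1:**
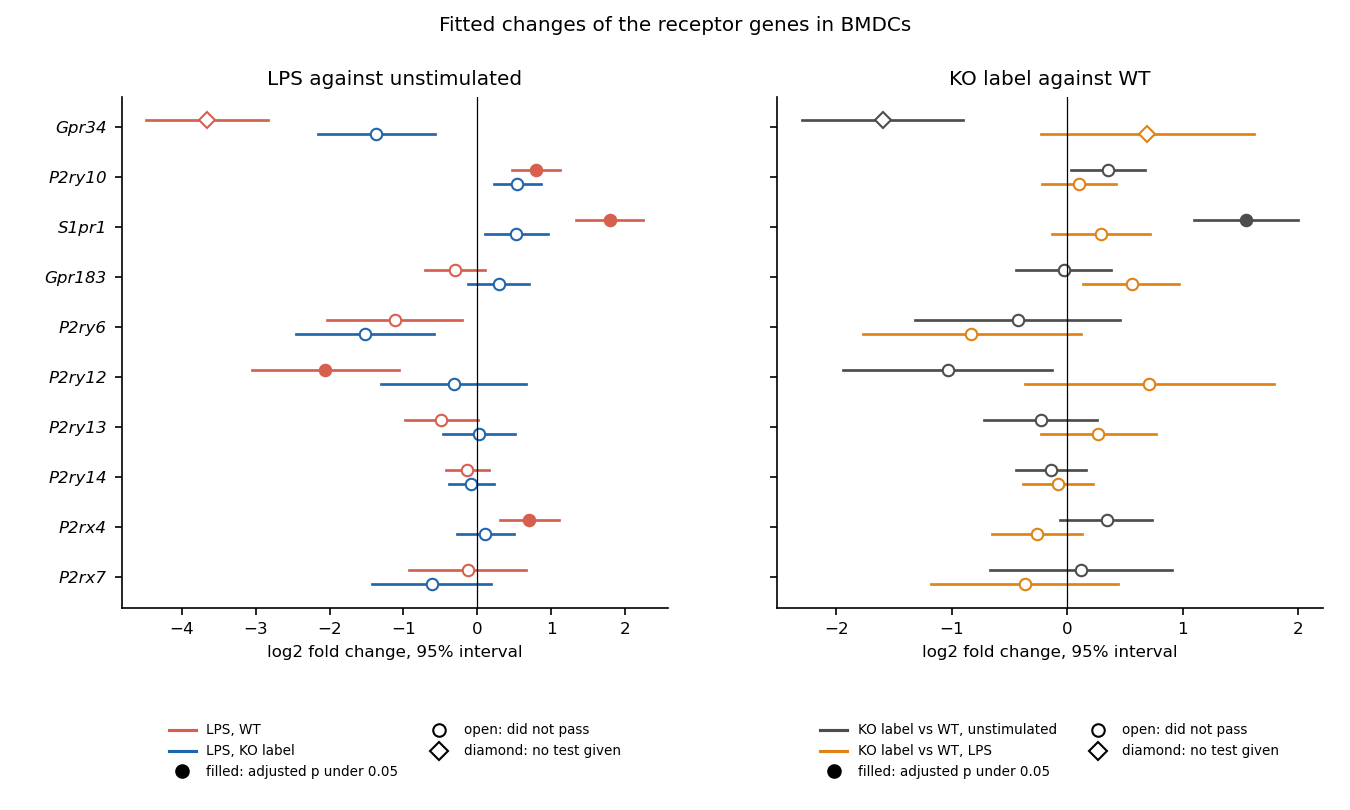
Log2 fold changes of the 10 receptor genes (x axis) with 95% intervals from the edgeR fit of 8 BMDC libraries, for LPS in each genotype label (left) and for the label with and without LPS (right). Filled circles passed an adjusted p of 0.05, and diamonds mark values of Gpr34 given with no test, -3.66 for LPS in WT cells among them. The intervals at the diamonds are not read as tests, since the WT difference chose the gene.

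Gpr34, a G protein-coupled receptor for lysophosphatidylserine, was at 13.2 and 12.0 CPM in the unstimulated WT libraries and at 1.07 and 0.915 CPM after LPS. These levels rest on 239 and 213 counts before and on 18 and 15 counts after LPS. The 2 groups lie far apart, with a fitted log2 difference of -3.66, or 12.6-fold lower after LPS. The unstimulated knockout-labelled libraries stood between these levels, at 3.36 and 4.94 CPM. They did not overlap with unstimulated WT, from which they differed by -1.60. This is given with no test since the same unstimulated WT libraries led to the choice of the gene. The knockout-labelled libraries with LPS were at 2.14 and 1.06 CPM, below their unstimulated partners, and the change of -1.37 did not pass (SE 0.348, edgeR adjusted p = 0.0984). With LPS the labels overlapped, at a difference of 0.69. The interaction term was 2.29. It contains the difference that chose the gene, and nothing is read from it. Cask, the gene around Gpr34, had a log2 change of 0.27 after LPS in WT that did not pass (adjusted p = 0.171). Mixed reads from Cask were not tested.

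P2ry10, the other lysophosphatidylserine receptor, had the highest level of the 10 per kb of exon in every BMDC library. It was at 223 and 170.1 CPM in unstimulated WT and at 366 and 315 CPM after LPS. Both LPS libraries were above both unstimulated ones, and the gene rose by 0.79 on the log2 scale (SE 0.141, edgeR adjusted p = 0.00334), or 1.73-fold. The knockout-labelled libraries were at 258 and 243 CPM unstimulated and at 378 and 353 CPM after LPS. They were ordered the same way without overlap, with a change of 0.54 that did not pass (SE 0.140, adjusted p = 0.101). Unstimulated knockout-labelled cells were above unstimulated WT by 0.35, which did not pass either (adjusted p = 0.116) but passed without WT unstimulated replicate 1 (0.56, adjusted p = 0.0287). The LPS response did not differ between the labels beyond its error (interaction -0.25, 95% interval -0.70 to 0.20). P2ry10b, a close paralog that could share reads, was far lower, at 8.13 ± 0.85 CPM (SD, n = 2) in unstimulated WT, and its change of -0.28 after LPS did not pass (adjusted p = 0.288).

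S1pr1, the receptor for sphingosine 1-phosphate that governs egress, was lowest in the unstimulated WT libraries, at 8.46 and 11.4 CPM. The unstimulated knockout-labelled libraries were at 32.8 and 25.4 CPM, and the WT libraries with LPS at 38.4 and 30.1. The knockout-labelled libraries with LPS were highest, at 40.4 and 43.6 CPM. All 6 of these libraries stood above both unstimulated WT libraries. S1pr1 rose 3.45-fold with LPS in WT, a log2 change of 1.79 (SE 0.198, edgeR adjusted p = 0.000525). It was 2.93-fold higher in unstimulated knockout-labelled than in WT cells, a log2 difference of 1.55 (SE 0.198, adjusted p = 0.00224). With LPS in knockout-labelled cells the change was 0.53 and did not pass (SE 0.186, adjusted p = 0.160). Both calls held under all 14 alternatives tried for each. The interaction was -1.26 (SE 0.270, adjusted p = 0.0384), a smaller LPS change in knockout-labelled cells. It was lost when WT unstimulated replicate 1, knockout-labelled unstimulated replicate 1, either WT LPS or either knockout-labelled LPS replicate was left out (-1.42 to -1.05, adjusted p 0.0522 to 0.156), and with library size alone as the scaling (-1.12, adjusted p = 0.0582). In all it was lost under 8 of 17 alternatives.

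Gpr183, the oxysterol receptor, was at 94.2 and 108 CPM in unstimulated WT, at 78.6 and 85.8 CPM in WT with LPS, and at 96.6 and 101 CPM in unstimulated knockout-labelled cells. In knockout-labelled cells with LPS its libraries spread most, at 146 and 95.8 CPM. None of its changes passed with all libraries. The values were -0.30 for LPS in WT (adjusted p = 0.228), 0.29 for LPS in knockout-labelled cells (adjusted p = 0.382) and 0.56 for the label after LPS (adjusted p = 0.388, 95% interval 0.14 to 0.97), with an interaction of 0.58 (adjusted p = 0.231). Without knockout-labelled LPS replicate 2, the lower of its group, the last 2 of these passed, at 0.83 (edgeR adjusted p = 0.0475) and 0.85 (adjusted p = 0.0428).

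**Figure D2:**
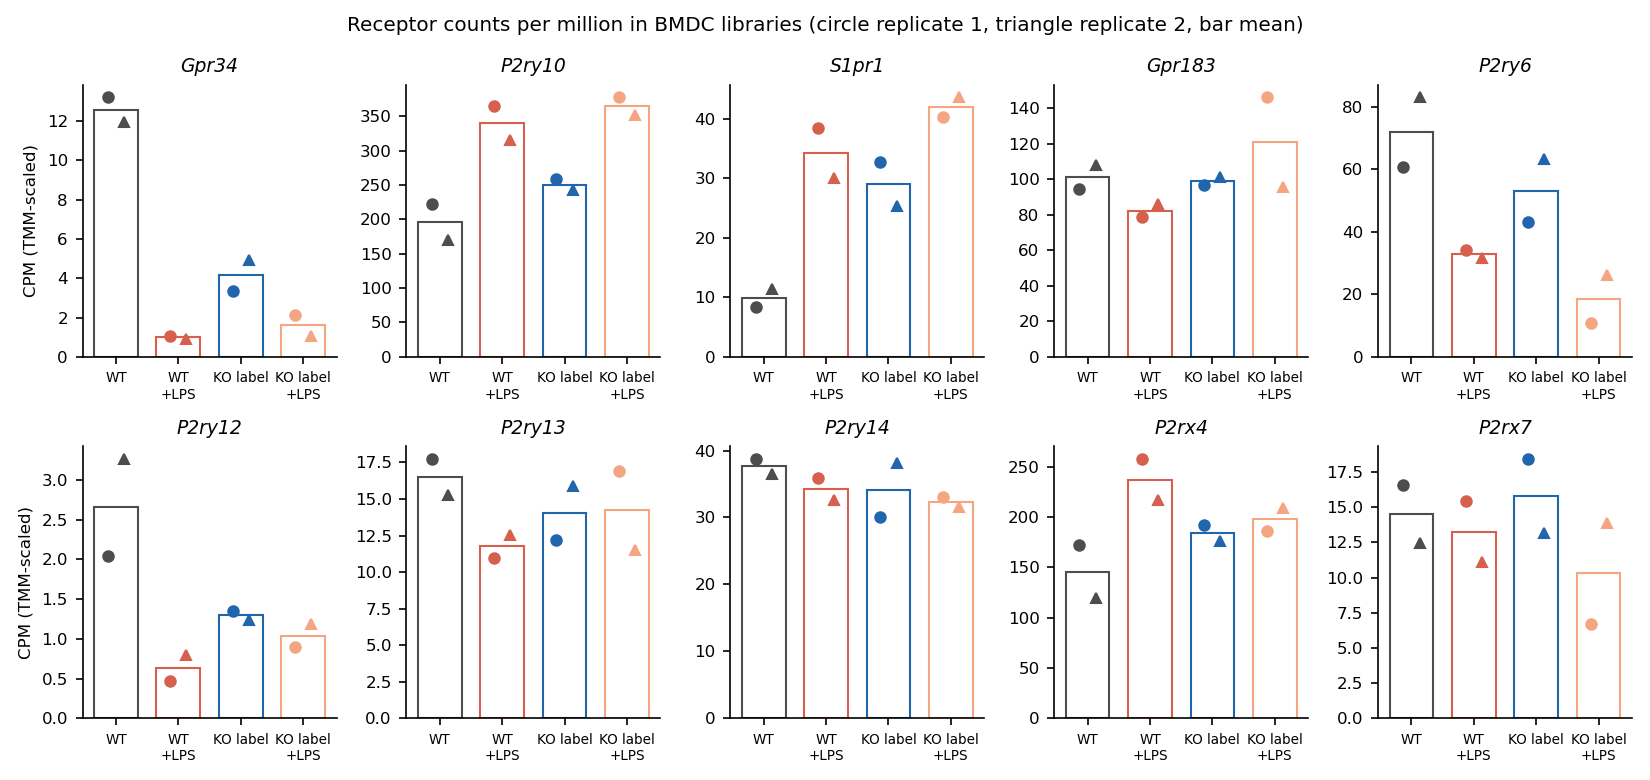
TMM-scaled CPM (y axis, a scale per gene starting at 0) of the 10 receptor genes in the 8 BMDC libraries; bars are means of 2 libraries, circles replicate 1 and triangles replicate 2. S1pr1 is lowest in unstimulated WT, at 8.46 and 11.4 CPM, and Gpr34 highest there, at 13.2 and 12.0 CPM.

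Among the P2Y nucleotide receptors P2ry6, which binds UDP, was at 60.6 and 83.0 CPM in unstimulated WT and at 34.3 and 31.6 CPM after LPS. The groups did not overlap, but the change of -1.12 narrowly missed the threshold (SE 0.383, edgeR adjusted p = 0.0575). It passed with upper-quartile scaling, library size alone, DESeq2, limma-voom, a fit without robust estimation and a fit of the 2 groups alone (adjusted p 0.00203 to 0.0461). It missed with any 1 of the 4 libraries left out (-1.33 to -0.88, adjusted p 0.0870 to 0.248). In knockout-labelled cells P2ry6 was at 43.1 and 63.3 CPM unstimulated and at 10.9 and 26.3 CPM after LPS. These also did not overlap, and the change of -1.52 did not pass in edgeR (SE 0.396, adjusted p = 0.110), while DESeq2 gave -1.50 (adjusted p = 0.000246) and edgeR without knockout-labelled LPS replicate 2 gave -2.29 (adjusted p = 0.0489). The lower of the knockout-labelled LPS libraries, replicate 1, also had the lower sum of 9 macrophage markers, 388 against 838 CPM in replicate 2, none of them at 0, and the part of this in the result was not tested.

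P2ry12, the ADP receptor known from platelets and microglia, was barely present in BMDCs, at 2.04 and 3.26 CPM in unstimulated WT, or 37 and 58 counts. After LPS it was at 0.475 and 0.793 CPM, or 8 and 13 counts. It fell by 2.06 on the log2 scale (SE 0.439, edgeR adjusted p = 0.00739), or 4.16-fold. The call was lost without WT unstimulated replicate 2 (-1.68, adjusted p = 0.0503) and without WT LPS replicate 1 (-1.73, adjusted p = 0.0604). Knockout-labelled libraries were at 1.35 and 1.24 CPM unstimulated and at 0.892 and 1.19 CPM after LPS, a change of -0.32 that did not pass (adjusted p = 0.706). Med12l, the host gene on the opposite strand, fell with it after LPS in WT, by 1.59 on the log2 scale (SE 0.328, adjusted p = 0.00640), and had 0.08 in knockout-labelled cells (adjusted p = 0.913). Mixed reads from Med12l were not tested. Platelet and megakaryocyte markers, 6 genes with Gp1bb at 0 in all groups, summed to 25.1 and 49.2 CPM in unstimulated WT and to 15.9 and 17.2 CPM after LPS. Microglia markers, 5 genes with Sall1 at 0 in every BMDC group, summed to 77.2 and 96.7 CPM and to 59.4 and 63.0 CPM. Their part in the result was not tested either.

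P2ry13, the neighbouring ADP receptor, and P2ry14, the receptor for UDP-glucose, passed in no BMDC comparison. P2ry13 was at 17.7 and 15.2 CPM in unstimulated WT and at 10.98 and 12.6 CPM after LPS, without overlap, and its change of -0.49 did not pass (adjusted p = 0.112) except with library size alone as the scaling (-0.69, adjusted p = 0.0387). In knockout-labelled cells it was at 12.2 and 15.9 CPM unstimulated and at 16.9 and 11.5 CPM after LPS, which overlap. P2ry14 stayed between 30.1 and 38.7 CPM in all 8 libraries, and its LPS change in WT was -0.14 (95% interval -0.43 to 0.16). So, of the 3 adjacent genes, P2ry12 alone passed for LPS in WT with TMM scaling; a difference between the 3 was not tested.

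P2rx4, the ATP-gated channel of endosomes and the cell surface, was at 172 and 119 CPM in unstimulated WT and at 258 and 217 CPM after LPS. It rose by 0.70 on the log2 scale (SE 0.172, edgeR adjusted p = 0.0138), or 1.63-fold, with both LPS libraries above both unstimulated ones. The call was lost without WT unstimulated replicate 2 (0.46, adjusted p = 0.0537) and without WT LPS replicate 1 (0.58, adjusted p = 0.0901). Knockout-labelled libraries were at 192 and 176 CPM unstimulated and at 187 and 209 CPM after LPS, overlapping, with a change of 0.11 (adjusted p = 0.756). The difference between labels in unstimulated cells was 0.34 (adjusted p = 0.204) and the interaction -0.60 (adjusted p = 0.202), and neither passed. Both passed without WT unstimulated replicate 1, at 0.63 (edgeR adjusted p = 0.0272) and -0.89 (adjusted p = 0.0404). P2rx7, its neighbour on chromosome 5, was at 16.6 and 12.5 CPM in unstimulated WT and at 15.4 and 11.1 CPM after LPS, which overlap. Its libraries in knockout-labelled cells were at 18.4 and 13.2 CPM and, after LPS, at 6.72 and 13.9 CPM, with a change of -0.62 that did not pass (adjusted p = 0.339). The lower of these, replicate 1, is the library with the macrophage marker sum of 388 CPM given above.

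In the tumoral DCs, late against early, 0 of the 10 genes passed, where 0.023% of all genes did (3 of 13040). At an unadjusted p under 0.05 edgeR gave 4 of the 10 (P2ry6, P2ry10, P2ry13 and S1pr1) and 1438 of all genes. DESeq2 and limma-voom called 0 of the 10 after adjustment, against 2.38% and 0% of all genes. The median log2 difference of the 10 was 0.40 against 0.01 for all genes, with 9 of the 10 above 0. The share of all genes above 0 was not computed, so nothing is read from that number. With 1 library left out, the lowest values were 0.02 for Gpr34, 0.01 for P2ry12, 0.06 for P2rx4, -0.15 for P2ry14 and -0.10 for Gpr183. They were 0.51 for P2ry6, 0.67 for P2ry13, 0.19 for P2rx7 and 0.54 for S1pr1. The groups did not overlap for 6 of the 10, P2ry6, P2ry13, P2rx4, P2rx7 and S1pr1 being higher late and P2ry10 lower, against 45.2% of all genes. P2ry14, near 0 here, turned negative with library size alone as the scaling. P2ry6 was at 125 and 82.7 CPM early and at 148 and 219.6 CPM late (0.82, SE 0.295, edgeR adjusted p = 0.389). P2ry13 was at 13.6 and 5.70 CPM early and at 26.8 and 16.4 CPM late (1.15, adjusted p = 0.437). S1pr1 was at 9.29 and 12.3 CPM early and at 15.7 and 21.5 CPM late (0.78, adjusted p = 0.417).

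P2ry10 went the other way among these, at 94.7 and 222 CPM early and at 83.2 and 59.8 CPM late (-1.15, SE 0.417, edgeR adjusted p = 0.403). Its paralog P2ry10b was at 31.4 ± 11.3 CPM (SD, n = 2) early and 22.7 ± 9.01 late, and shared reads were not tested. The early libraries differed from each other more than the late ones in Gpr34, 9.85 and 3.30 CPM early against 9.19 and 10.8 late, and in Gpr183, 14.8 and 34.2 against 30.4 and 33.3. Early replicate 2 was the lowest of the 4 in Gpr34, P2ry6, P2ry12, P2ry13, P2rx4 and P2rx7 and the highest in P2ry10 and Gpr183. It also had the lowest sum of 9 macrophage markers, 4619 CPM against 8531 in early replicate 1 and 8790 and 11009 late. Its sum of 5 mature DC markers, 2148 CPM, was above the 578 of early replicate 1 and the 1545 and 1586 of the late libraries, in which Lamp3 was at 0. The 7 T cell markers summed to 357 and 257 CPM early and 75.9 and 43.6 CPM late, with none at 0. The 6 NK markers summed to 443 and 404 CPM early and 128 and 64.0 late, and the 5 fibroblast markers to 791 and 329 early and 209 and 60.1 late, none at 0. The sum of platelet and megakaryocyte markers went the other way, from 116 and 133 CPM early to 407 and 565 late, with Gp1bb at 0. Pf4 (mean 115 early, 403 late) and Ppbp (6.93 and 80.2) carried this rise. Itga2b (1.92 and 2.18) and Gp9 (0.731 and 0.734) were level, and Treml1 was low (0.227 and 0.627). The part of these markers in the receptor values was not tested. Without early replicate 1, 4 of the 10 passed: Gpr34 (1.60, edgeR adjusted p = 0.0270), P2ry6 (1.16, adjusted p = 0.00450), P2ry10 (-1.63, adjusted p = 1.5e-06) and P2ry13 (1.93, adjusted p = 0.000112), where 7.94% of all genes did. Without early replicate 2 only Gpr183 of the 10 passed (1.11, adjusted p = 0.0474), against 4.23% of all genes.

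**Figure D3:**
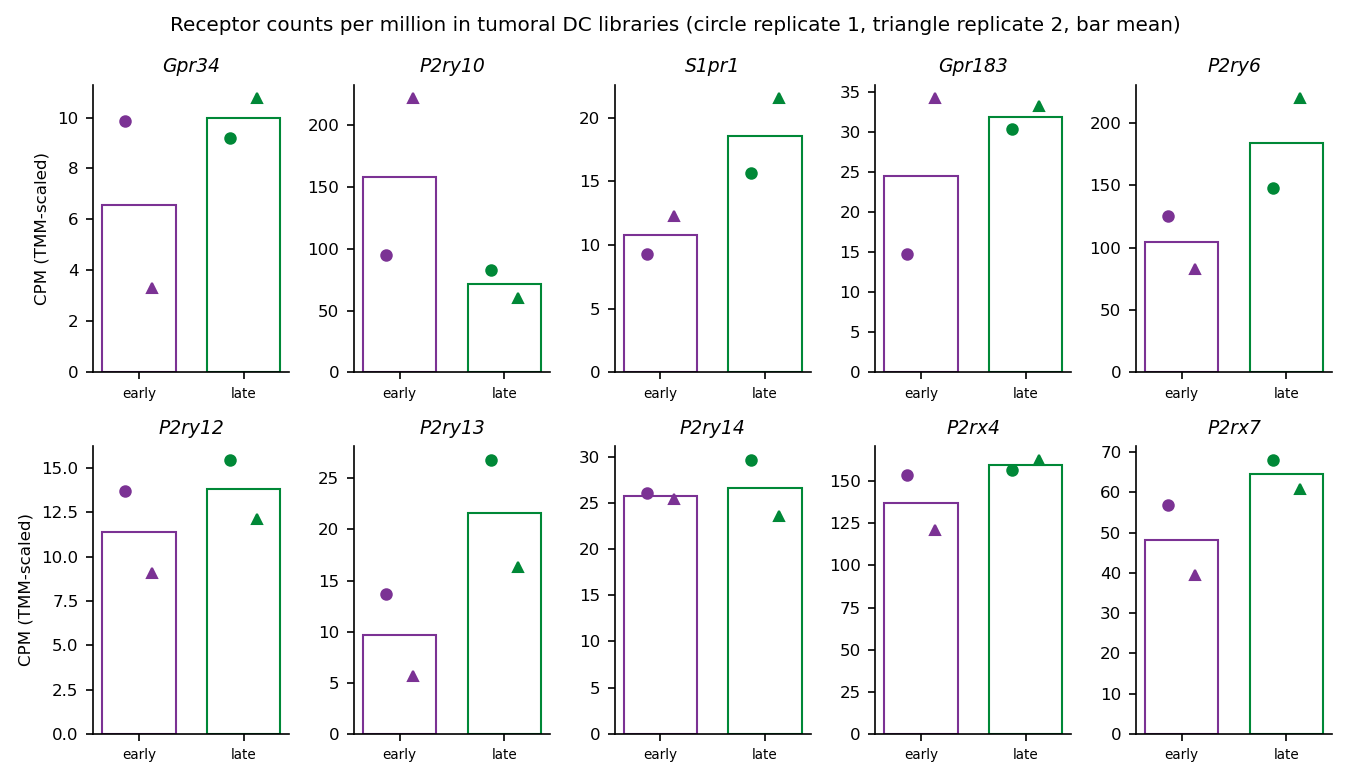
TMM-scaled CPM (y axis, a scale per gene starting at 0) of the 10 receptor genes in 2 early and 2 late tumoral DC libraries; bars are means, circles replicate 1 and triangles replicate 2. Early replicate 2 is lowest for Gpr34, at 3.30 CPM, and highest for P2ry10, at 222 CPM.

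The remaining tumoral values were close. P2ry12 was at 13.7 and 9.07 CPM early and 15.5 and 12.1 late, and P2ry14 at 26.1 and 25.5 early and 29.7 and 23.6 late. P2rx4 was at 154 and 121 CPM early and 157 and 163 late, and P2rx7 at 56.7 and 39.5 early and 68.1 and 60.8 late. Both channels were higher late without overlap, by 0.22 (edgeR adjusted p = 0.743) and 0.42 (adjusted p = 0.567).

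Set beside each other, the ranges of the 2 experiments did not overlap for P2ry12, P2rx7, Gpr183 and P2ry14. The share of all genes without overlap was not computed, so nothing is read from the number of such genes. P2ry12 was at 9.07 to 15.5 CPM in tumoral DCs and at 0.475 to 3.26 CPM in BMDCs, and P2rx7 at 39.5 to 68.1 and at 6.72 to 18.4 CPM. Gpr183 was lower in tumoral DCs, at 14.8 to 34.2 CPM, than in BMDCs, at 78.6 to 146. The P2ry14 ranges nearly met, at 23.6 to 29.7 CPM in tumoral DCs and 30.1 to 38.7 in BMDCs, and no difference is read from them. The tables were scaled separately and no test was made; tissue, culture and experiment cannot be told apart. Macrophage markers summed to 4619 to 11009 CPM in tumoral libraries and 388 to 1219 CPM in BMDCs.

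Levels of different genes were compared per kb of exon, that is CPM divided by exon length, with overlap of the 2 libraries as the measure of spread. The length counts all exons annotated for a gene, merged over its transcripts. It was longest for P2ry14 (11059 bases), P2rx4 (7025) and P2rx7 (5970), against 2090 to 3046 for the others, which places these genes lower. By CPM alone P2rx4 (146) stood above Gpr183 (101) in unstimulated WT. P2ry10 led in unstimulated WT BMDCs, at 65.8 ± 12.4 CPM per kb (SD, n = 2), followed by Gpr183 at 35.0 ± 3.30, P2ry6 at 24.9 ± 5.48 and P2rx4 at 20.7 ± 5.31. P2ry6 and P2rx4 overlapped. P2ry13 (6.52 ± 0.699) and Gpr34 (6.03 ± 0.416) overlapped too, as did P2ry14 (3.40 ± 0.139), S1pr1 (3.26 ± 0.688) and P2rx7 (2.43 ± 0.485), each with the next. P2ry12 was last, at 1.04 ± 0.338. After LPS in WT, S1pr1 stood at 11.2 ± 1.94 CPM per kb, level with P2ry6 at 11.4 ± 0.652, and Gpr34 at 0.475 ± 0.0520 was above P2ry12 alone. In late tumoral DCs P2ry6 led, at 63.7 ± 17.5 CPM per kb, above P2ry10 at 24.0 ± 5.53 and P2rx4 at 22.7 ± 0.611, which overlapped. In early tumoral DCs P2ry10 (53.1 ± 30.2) and P2ry6 (36.1 ± 10.5) overlapped at the top.

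**Figure D4:**
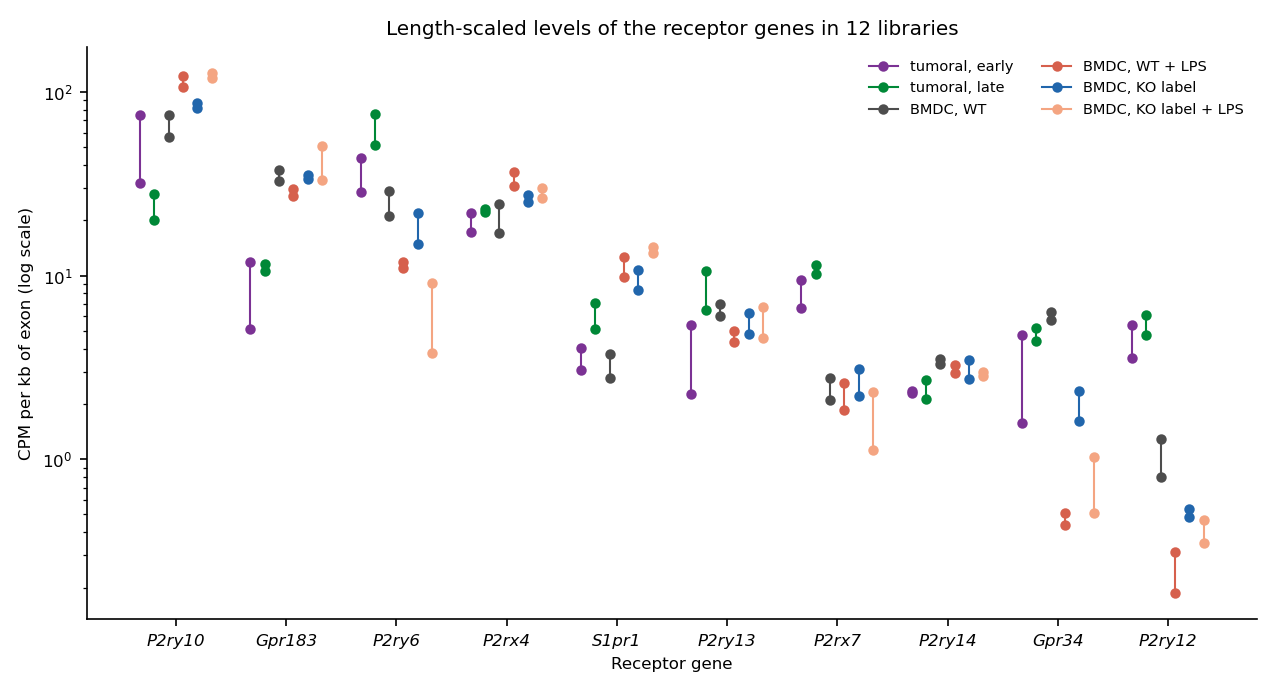
CPM per kb of exon (y axis, log scale) of the 10 receptor genes in the 12 libraries, each line joining the 2 libraries of a group. P2ry10 leads in all 4 BMDC groups, P2ry6 in late tumoral DCs, and P2ry12 is last in all 4 BMDC groups.

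The other genes of these pathways were counted from lists of other receptors, ligand enzymes, regulators and G proteins, chosen with earlier results of these data known. Of 97 listed genes, 82 were tested in BMDCs. For LPS in WT 21 rose and 21 fell, 51.2% against 37.6% of all genes, and for the knockout label without stimulation 14 were higher and 10 lower, 29.3% against 18%. The interaction called 3 higher and 8 lower, 13.4% against 4.48%. LPS in knockout-labelled cells, the label after LPS and the tumoral comparison called 0 of them.

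Around S1pr1, the enzyme that makes its ligand, Sphk1, rose with LPS in WT by 2.57 on the log2 scale and was higher by 2.57 in unstimulated knockout-labelled cells (edgeR adjusted p = 0.000474 and 0.00124). Its level was 3.17 ± 1.38 CPM (SD, n = 2) in unstimulated WT, 18.9 ± 3.32 in unstimulated knockout-labelled, 18.8 ± 2.79 in WT with LPS and 25.3 ± 0.0966 in knockout-labelled cells with LPS. S1pr1, like Sphk1, was lowest in unstimulated WT. Sgpp1, a phosphatase that removes sphingosine 1-phosphate, fell by 1.21 with LPS in WT and was lower by 0.62 (log2 difference -0.62) with the label. Of 11 tested genes of sphingosine 1-phosphate metabolism and transport, 2 rose and 1 fell with LPS in WT. Of 7 S1PR1 regulators 2 rose and 2 fell; Klf2, a transcription factor known to drive S1pr1 in T cells, fell by 2.90 (adjusted p = 0.0305), while Foxo1, which acts upstream of it, rose by 0.93 (adjusted p = 0.000636). The 2 unstimulated WT libraries spread widely in Klf2, at 75.9 ± 67.0 CPM.

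Of 12 other lysophospholipid receptors tested, 3 rose and 3 fell with LPS in WT. S1pr3 rose by 2.37 (edgeR adjusted p = 0.00458), from 0.670 ± 0.166 to 3.50 ± 1.34 CPM. Lpar5, a receptor for lysophosphatidic acid, fell by 2.65 (adjusted p = 0.000800), and S1pr4, the sphingosine 1-phosphate receptor of blood cells, by 2.36 (adjusted p = 0.00551). With the label in unstimulated cells 3 were higher and 2 lower, S1pr3 by 3.02 and Gpr55 by 1.37 among the former and Lpar6 (-1.34) among the latter. Of 9 lysophospholipid ligand enzymes 2 rose and 3 fell with LPS in WT. Pla1a, a phospholipase that makes lysophosphatidylserine, the ligand of Gpr34 and P2ry10, rose by 2.30 (adjusted p = 0.000800), and Abhd12, which degrades it, changed by -0.52 (adjusted p = 0.0155).

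Around Gpr183, 2 of 3 tested oxysterol enzymes fell with LPS in WT and 0 rose. Ch25h, which makes the precursor of the Gpr183 ligand, fell by 2.09 (edgeR adjusted p = 0.0102) and Cyp27a1 by 1.78 (adjusted p = 0.000419). Ch25h was at only 1.56 ± 0.138 CPM in unstimulated WT. The Gpr183 receptor itself did not pass, as given above.

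Around the nucleotide receptors, 5 of 10 inflammasome genes rose and 1 fell with LPS in WT. Il1b, the cytokine precursor processed downstream of P2rx7, rose by 4.07 (edgeR adjusted p = 0.000120), Il1a by 2.74 and Casp4 by 2.32. Il1b was at 39.7 ± 2.62 CPM (SD, n = 2) in unstimulated WT and at 572 ± 168 in unstimulated knockout-labelled cells, with 669 ± 54.4 and 616 ± 13.2 CPM after LPS. P2rx7 passed in none of these comparisons. Of 9 enzymes and release channels for extracellular nucleotides 3 rose and 4 fell with LPS in WT. Cd38, an NAD-consuming ectoenzyme, rose by 3.72 (adjusted p = 0.00355), while Entpd1, which degrades ATP and ADP, fell by 1.28 (adjusted p = 0.00527) and Enpp1 by 1.65 (adjusted p = 0.00116). Among adenosine receptors Adora2a rose by 1.26 and Adora3 fell by 2.19. P2ry1, another ADP receptor, fell by 1.79 (adjusted p = 0.0182), the only call among 3 tested other P2Y receptors, and 0 of 3 other P2X receptors passed. Of 12 G proteins and RGS genes 3 rose and 3 fell, Rgs18 by 2.42 and Gna15 by 2.37 among the latter.

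Markers of DC subsets and other cells moved in the same comparisons. Of 7 cDC1 markers 2 rose and 5 fell with LPS in WT, of 9 macrophage markers 5 rose and 0 fell, and of 5 tested neutrophil markers 3 fell and 0 rose. For the label in unstimulated cells, 1 of the 7 cDC1 markers was higher and 4 lower, and 2 of the 9 macrophage markers were higher and 0 lower. The macrophage markers summed to 891 and 591 CPM in unstimulated WT and 1219 and 846 CPM after LPS, with none at 0. The 5 mature DC markers summed to 10223 and 8719 CPM and to 18147 and 20821 CPM, and in unstimulated knockout-labelled cells to 16732 and 14625 CPM, with none at 0. Their part in the receptor changes was not tested.

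The genes whose profile over the 8 BMDC libraries was closest to each receptor were found by the root mean square difference of mean-centred log2 CPM, a description with no test. Gpr34 was closest to Hepacam2 (0.345) and Itgae (0.364), where the spread of Gpr34 itself was 1.39. S1pr1 was closest to Satb1 (0.135) and Stat2 (0.147), against an own spread of 0.821. P2ry10 was closest to Kit (0.0504) and Bmp2k (0.0635), against 0.380. P2ry6 stood next to Tnfrsf21 (0.168) and Lyz2 (0.188), and P2ry12 to Ngp (0.213) and Cyp27a1 (0.231). For P2rx4 these genes were Mdfic and Ttl, for P2rx7 Ethe1 and Rcan1, and for Gpr183 Sting1 and Mettl9. P2ry13 was closest to Mrpl18 and Retreg1, and P2ry14 to Ankrd49 and Lrrc8d, both receptors with small spreads of 0.25 and 0.12.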

How the data were processed

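RNA was measured in 12 mouse libraries, 6 groups of 2. The authors deposited raw counts per gene symbol in 2 tables; the submitters' processing notes name fastp 0.12.4, HISAT2 2.2.1, featureCounts 2.0.1 and mm10, with no role or order. Annotation release, strand setting and treatment of multi-mapping reads: not given in the sources used here. The protocol for extraction in the labels names a different tissue.

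The receptor genes and all lists were chosen with earlier results of these data known. Each table was fitted whole in R 4.3.3 with edgeR 4.0.16: filterByExpr (minimum count 10; 13040 tumoral and 13072 BMDC genes kept), TMM, robust glmQLFit and glmQLFTest, Benjamini-Hochberg over all genes tested, threshold 0.05. All 8 BMDC libraries entered 1 fit and the 4 tumoral libraries another. The SE is the log2 change divided by the root of F. Exon lengths and positions came from GENCODE vM21, promoters from RefSeq (GRCm38.p6). Per pathway list and comparison, at most the 3 called genes with the largest change were named; others named for their levels were chosen after their values were seen. Likeness took the 2 closest genes of average log2 CPM at least 2. Alternatives were other scalings and filters, DESeq2 1.42.0, limma-voom (limma 3.58.1), a replicate block, pairwise fits and leaving out each library. The steps were tested on simulated data.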

Additional observations from a re-analysis of the deposited data

Results flagged for a closer look

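The LPS response of S1pr1 differed between the genotype labels by the interaction term of the edgeR fit over 8 BMDC libraries, at -1.26 on the log2 scale (edgeR adjusted p = 0.0384). The gene was higher after LPS in both labels, by 1.79 in WT and by 0.53 in knockout-labelled cells, where the change did not pass. The interaction passed the threshold under 9 and missed it under 8 of 17 alternatives, with a range of -1.49 to -1.05. The unstimulated groups already differed, by 1.55. The same term of Gpr34, 2.29, is a description with no test. It contains the WT difference of -3.66 that chose the gene, and nothing is read from it.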

How the results depend on the processing

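With 2 libraries per group, single libraries decided several counts of calls. Of 870 alternative values of the receptor genes, 799 kept direction and side of the threshold, 29 newly passed, 21 no longer passed and 21 changed sign. No sign change touched a called value; 18 came from leaving out 1 library. Over the libraries left out, these values ran, late against early, from -0.15 to 0.21 for P2ry14 (-0.06 with library size alone) and from -0.10 to 1.11 for Gpr183. For LPS in WT, P2rx7 ran from -0.39 to 0.09. For LPS in knockout-labelled cells, P2ry13 ran from -0.29 to 0.27 (-0.02 with upper-quartile scaling, -0.06 with library size alone), P2ry14 from -0.23 to 0.11 and Gpr183 from -0.05 to 0.56. For the label unstimulated, P2rx7 ran from -0.15 to 0.34, Gpr183 from -0.12 to 0.07 and P2ry14 from -0.32 to 0.01. For the label after LPS, P2ry10 ran from -0.01 to 0.21, P2ry13 from -0.04 to 0.52 and P2rx7 from -0.98 to 0.06. For the interaction, P2ry14 ran from -0.09 to 0.24 and P2ry6 from -1.17 to 0.10. The causes were not tested.

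Where a comparison holds WT libraries, Gpr34's part in the calls and counts of this section is not read as a test. Its WT difference chose the gene. Counts of the 10 genes, Gpr34 included, and of all genes called moved as follows. Late against early (0 and 3, 0.023% of 13040 tested), no filter on low counts gave 3 and 689, 3.72% of 18539 tested. RLE scaling gave 0 genes, upper quartile 45, library size alone 28, DESeq2 311, limma-voom 0 and no robust estimation 0 genes. For LPS in knockout-labelled cells (0 and 0), no filter gave 2 and 587, 2.89% of 20339 tested. DESeq2 gave 3 and 793 there, 6.07% of 13072 tested, RLE 22, upper quartile 21 and library size alone 24 genes. For the label unstimulated (2 and 2357, 18%) a fit of the 2 groups alone gave 993 genes, 7.79% of 12751 tested. For the label after LPS (0 and 0), no filter gave 56 (0.275%) and DESeq2 150 genes (1.15%). For the interaction (2 and 585, 4.48%), S1pr1 was lost with library size alone and kept with limma-voom. No filter gave 948 (4.66%) and DESeq2 1082 genes (8.28%). Leaving out 1 library gave 0 to 4 of the 10 and 0 to 1063 genes late against early, 3 to 5 and 2676 to 4100 for LPS in WT, 0 to 1 and 0 to 615 for LPS in knockout-labelled cells, 1 to 4 and 593 to 2717 for the label unstimulated, 0 to 1 and 0 to 65 for the label after LPS, and 0 to 2 and 58 to 1076 for the interaction. The ends of these ranges come from different fits, so a count of the 10 and a count of genes do not pair. With library size alone, LPS in WT called 1689 genes higher and 3728 lower (2609 and 2301 with TMM), with a median of all genes of -0.228. The label unstimulated called 1282 and 1301 (1575 and 782 with TMM), with a median of -0.115.

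The replicate numbers were not taken as pairs. Deviations of same-numbered libraries correlated at -0.196 between the tumoral groups, at 0.248, 0.257 and 0.419 between the BMDC groups other than knockout-labelled LPS, and at -0.396, -0.268 and -0.113 with that group. With the replicate number as a block, 173 genes (1.33%) were called late against early and 2 genes (0.0153%) for the label after LPS. For LPS in knockout-labelled cells 1 of the 10 and 321 genes (2.46%) were called. For the interaction 0 of the 10 were called, against 3.95% of all genes, and S1pr1 was at -1.24 (edgeR adjusted p = 0.0556). The block also brought P2ry6 for LPS in WT (-1.08, adjusted p = 0.0295), P2ry10 for LPS in knockout-labelled cells (0.54, adjusted p = 0.0463) and P2ry10 for the label unstimulated (0.36, adjusted p = 0.0499) past the threshold. With the numbers crossed, an alternative chosen after seeing the data, 378 tumoral genes were called.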
